A study of Mus musculus with 12 samples.

Results

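The genes described here are 53 components of transforming growth factor beta (TGF-beta) and bone morphogenetic protein (BMP) signaling, measured by RNA-seq in satellite cells, the stem cells of skeletal muscle. They were chosen by gene name as ligands, latency factors, antagonists, receptors, Smads, regulators and Id targets of the pathway, by a rule that uses names and not measured values, although earlier results of these data were known when the list was made. All 53 were found among the 55401 genes of the count table, and all 53 passed the filter on low counts, which kept 25771 genes. The cells were Pax7-ZsGreen+ cells, sorted by flow cytometry from hind limbs, in which a fluorescent reporter marks Pax7, the transcription factor of satellite cells. By the study's methods all mice carried Cxcr4 FL/FL alleles and Pax7-ZsGreen, were adults of 3 to 4 months, and received tamoxifen by injection at 80 mg/kg on 5 consecutive days, followed by a diet containing tamoxifen. The Cxcr4 KO mice carried Pax7-creERT2 in addition, which deletes the floxed exon of the chemokine receptor Cxcr4 in satellite cells and may leave some cells undeleted, and the mice called WT lacked cre. The methods count sample sizes in general as independent mice, but the labels do not tie each library to a mouse, so p-values measure the spread between these libraries, which may be technical. Quiescent cells were taken directly after sorting, with 4 WT and 4 KO libraries. Activated cells were kept in culture overnight, with 2 WT and 2 KO libraries.

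TGF-beta family ligands are secreted dimers that bring together a type II and a type I receptor kinase on the cell surface. The type I receptor then phosphorylates Smad2 and Smad3 (TGF-beta and activin branch) or Smad1, Smad5 and Smad9 (BMP branch), which join Smad4 and enter the nucleus. In muscle the family is known for holding back myogenic differentiation and growth, with myostatin, a muscle-made member that limits muscle mass, as its most familiar case, while BMP signaling is known to keep activated satellite cells dividing. The Id genes encode helix-loop-helix proteins that bind and block basic helix-loop-helix transcription factors, and they are direct targets of BMP Smads.

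The libraries held 12775593 to 23717013 counts in the quiescent state and 3172164 to 5427280 counts in the activated state. Levels are given as CPM, each library's counts scaled to the same total by edgeR's TMM method. Cxcr4 had 61.2, 59.1, 89.6 and 112 CPM in the quiescent WT libraries and 17.6, 21.2, 12.5 and 17.1 CPM in the quiescent KO libraries, and the groups did not overlap, with a log2 fold change of -2.24 (SE 0.31, edgeR adjusted p = 0.00477). In the activated state it had 33.3 and 14.4 CPM in activated WT and 5.39 and 13.7 CPM in activated KO libraries, with -1.35 (SE 0.46, edgeR adjusted p = 0.381). Here edgeR stands for edgeR's quasi-likelihood test with Benjamini-Hochberg adjustment over all 25771 genes, and SE for the standard error of the log2 fold change. The state of the cells went together with other properties of the libraries: a single ribosomal RNA gene (CT010467.1) took 0.295% to 0.807% of counts in quiescent libraries and 11.5% to 40.3% in activated ones. Ddx3y, a gene of the Y chromosome, lay at 289 to 570.4 CPM in the quiescent and at 0 to 2.28 CPM in the activated libraries. Xist, which is expressed from the inactive X chromosome, lay at 1.2 to 7.17 CPM in the quiescent and 451 to 817 CPM in the activated libraries, so that the sex of the mice and the state of the cells cannot be told apart. In bulk libraries fewer cells of a type and less RNA per cell cannot be told apart either.

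The bases before the transcription start are shown for 6 members. Id2, Id3 and Id4 are shown because the Id genes are direct BMP targets. Smurf2, Mstn and Ltbp2 are shown because they were the 3 members called higher on activation in both genotypes. Id1 had no matched start site. Capitals mark 3 motifs linked to Smads, searched on both strands: GTCTAGAC, which is its own reverse complement, CAGACA with its reverse complement TGTCTG, and the GC-rich GGCGCC, none of which contains another. Each line gives 250 bases, 5′ to 3′, ending at the base before the RefSeq start on GRCm38.p6.
Id2 upstream: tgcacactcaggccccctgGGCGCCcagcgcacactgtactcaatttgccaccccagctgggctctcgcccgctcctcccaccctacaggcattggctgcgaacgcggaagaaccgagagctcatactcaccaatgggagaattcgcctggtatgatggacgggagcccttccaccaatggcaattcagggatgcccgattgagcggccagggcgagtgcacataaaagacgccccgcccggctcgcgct
Id3 upstream: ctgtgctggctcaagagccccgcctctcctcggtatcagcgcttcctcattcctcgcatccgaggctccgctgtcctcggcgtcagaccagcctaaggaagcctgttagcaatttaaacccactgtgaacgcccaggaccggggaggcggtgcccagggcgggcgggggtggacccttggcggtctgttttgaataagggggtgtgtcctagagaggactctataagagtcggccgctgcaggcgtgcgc
Id4 upstream: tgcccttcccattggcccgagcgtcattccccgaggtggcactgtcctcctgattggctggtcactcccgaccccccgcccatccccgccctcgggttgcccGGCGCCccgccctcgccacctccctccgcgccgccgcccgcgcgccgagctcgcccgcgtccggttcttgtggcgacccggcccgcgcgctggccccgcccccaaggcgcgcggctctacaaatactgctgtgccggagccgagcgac
Smurf2 upstream: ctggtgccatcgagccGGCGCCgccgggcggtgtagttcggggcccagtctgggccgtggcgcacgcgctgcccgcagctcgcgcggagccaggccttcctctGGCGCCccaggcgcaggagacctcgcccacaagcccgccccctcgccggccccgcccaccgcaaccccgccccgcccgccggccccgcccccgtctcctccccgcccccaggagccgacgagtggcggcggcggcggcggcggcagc
Mstn upstream: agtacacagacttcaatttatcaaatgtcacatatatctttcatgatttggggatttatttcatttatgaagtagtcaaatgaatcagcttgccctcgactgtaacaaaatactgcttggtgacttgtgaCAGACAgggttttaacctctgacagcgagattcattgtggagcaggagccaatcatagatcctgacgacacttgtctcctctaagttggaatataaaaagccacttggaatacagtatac
Ltbp2 upstream: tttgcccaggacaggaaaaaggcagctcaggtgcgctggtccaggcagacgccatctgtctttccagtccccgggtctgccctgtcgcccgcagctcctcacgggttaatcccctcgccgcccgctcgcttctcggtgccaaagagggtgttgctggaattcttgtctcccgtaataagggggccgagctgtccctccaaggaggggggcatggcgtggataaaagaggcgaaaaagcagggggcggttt
The Id2 stretch is chr12:25096093-25096342 on the minus strand. The Id3 stretch is chr4:136143572-136143821 on the plus strand. The Id4 stretch is chr13:48260866-48261115 on the plus strand. The Smurf2 stretch is chr11:106920716-106920965 on the minus strand. The Mstn stretch is chr1:53061390-53061639 on the plus strand. The Ltbp2 stretch is chr12:84876492-84876741 on the minus strand. RefSeq start sites were matched for 39 of the 53 genes, with 48 start sites in all. GGCGCC was found upstream of Id2, Id4 and Smurf2, and CAGACA upstream of Mstn, while the Id3 and Ltbp2 stretches held none of the 3 motifs. GGCGCC stood in 13 of the 48 upstream stretches of members (27.1%) and in 9.59% of all 32851 stretches of the same length. The members' stretches were also richer in G and C, with a median of 67.4% against 52.4%, and among stretches with over 60% G and C the motif stood in 13 of 33 for members (39.4%) and in 26.5% for all genes. CAGACA stood in 16.7% of the members' stretches and 17.1% of all, and GTCTAGAC in 0 of the members' stretches and 0.167% of all. A match is a run of letters and not a binding site.

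In quiescent WT cells the 53 genes spanned a wide range of levels. The most abundant member per kilobase of exon was Id3 at 444 ± 49.5 CPM per kb (SD, n = 4). Ltbp4, a large extracellular protein that binds latent TGF-beta and elastic fibres, followed at 184 ± 12 CPM per kb, and Id1 at 138 ± 8.04 CPM per kb. Ski, a nuclear corepressor that binds Smads, stood at 91.1 ± 9.88 CPM per kb, and Thbs1, which encodes the matrix protein thrombospondin 1, an activator of latent TGF-beta, at 81.1 ± 6.44 CPM per kb. The libraries of Id3, Ltbp4, Id1 and Ski did not overlap from 1 of these genes to the next, whereas those of Ski and Thbs1 did. Across the whole order, 46 of the 52 neighbouring pairs overlapped. The lowest levels belonged to Grem1, a secreted BMP antagonist, at 0.185 ± 0.124 CPM per kb and to Mstn, which encodes myostatin, at 0.232 ± 0.0591 CPM per kb.

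**Figure D1:**
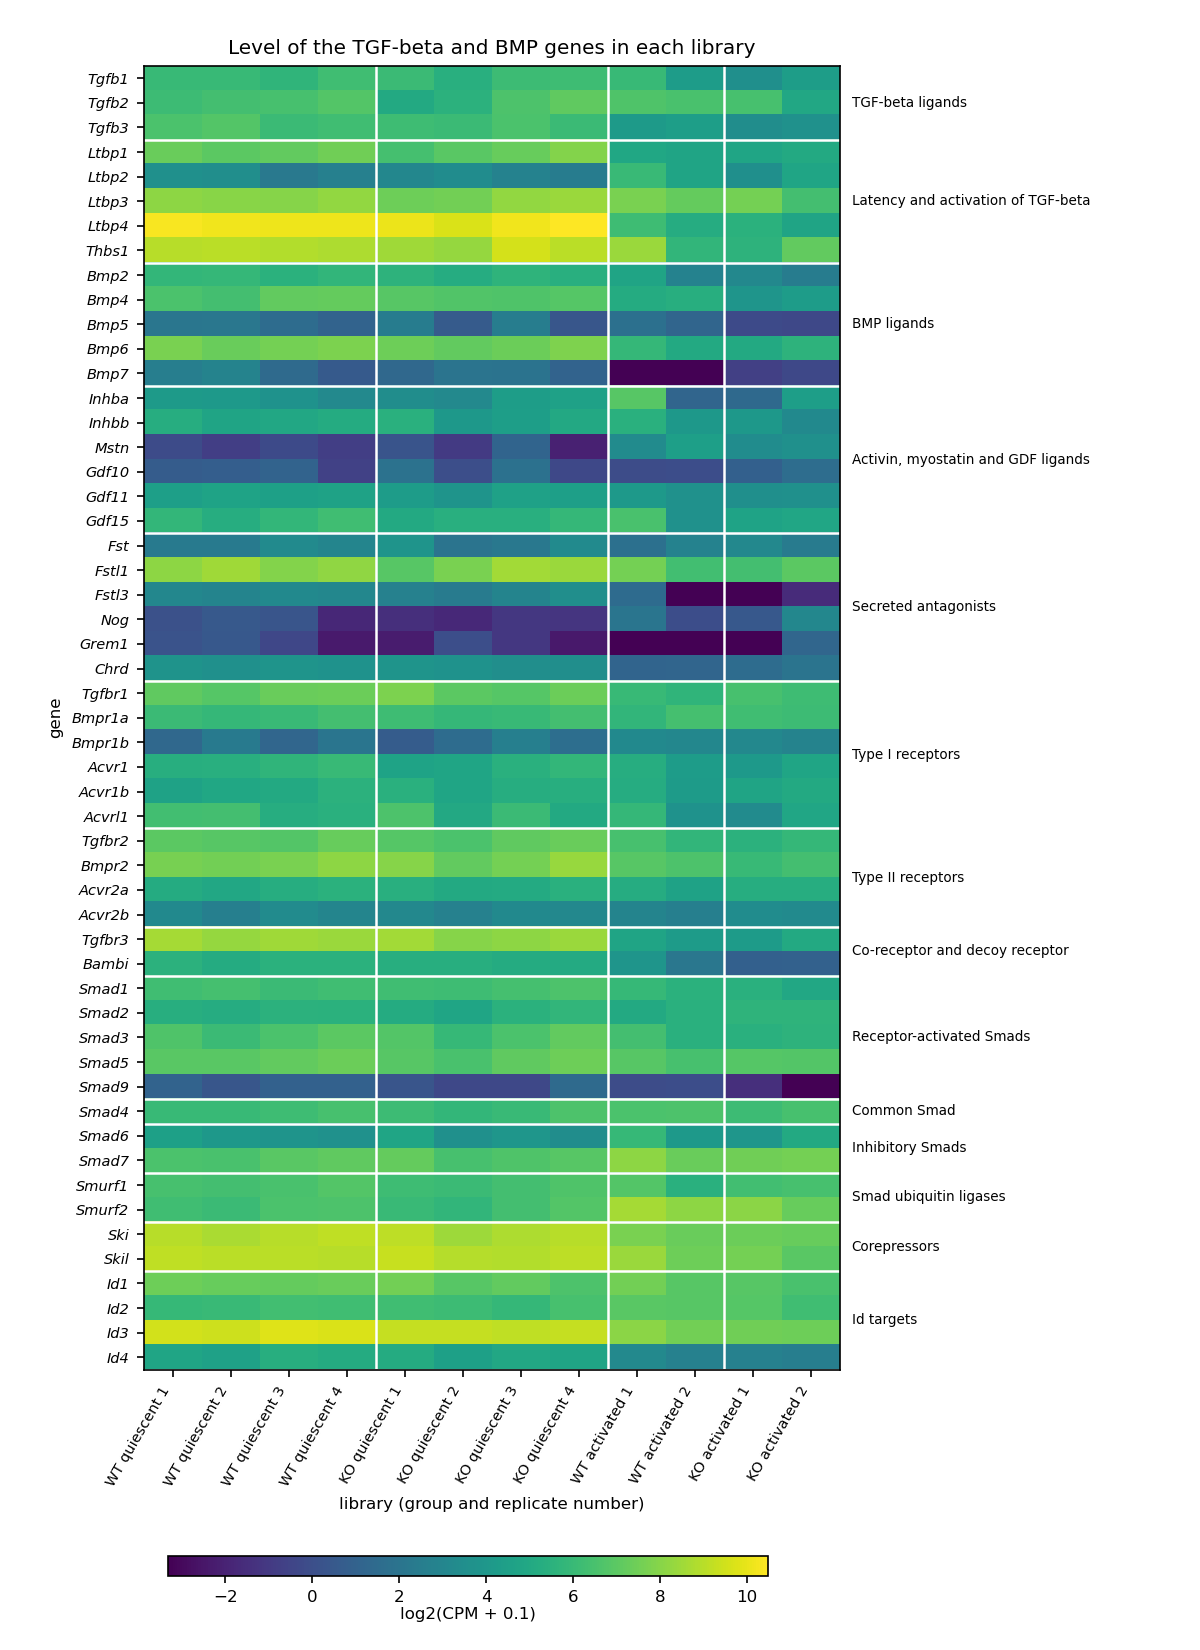
Level of each of the 53 genes (rows, grouped by role) in each of the 12 libraries (columns), as log2(CPM + 0.1), with dark purple for low and yellow for high. Ltbp4, Tgfbr3, Ski, Skil and Id3 are brighter in the 8 quiescent than in the 4 activated libraries, Smurf2 and Mstn are the reverse, and WT activated 1 is brighter than WT activated 2 for Inhba.

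The comparison of activated with quiescent cells asked how the pathway's genes moved during overnight culture. A gene was called when the edgeR adjusted p was under 0.05, the log2 fold change passed 1 in either direction and the mean count in the compared groups passed 10. Adjusted p-values come from that test unless DESeq2 is named. An alternative fit to these comparisons, the replicate block, gave libraries with the same replicate number a shared term across both states. The labels do not say that such libraries belong together. In WT cells 6 members were called higher and 17 lower, 23 of 53, where 26.2% of all genes were called (9.65% higher, 16.5% lower). In KO cells 4 were called higher and 25 lower, where 29.6% of all genes were called (11.1% higher, 18.5% lower). The members' median log2 fold change was -0.64 in WT and -0.96 in KO, beside -0.92 and -0.96 over all tested genes. Many of the tested genes had few counts, and the shares of all genes called were not matched for mean count. Among genes with a mean count over 100, the median was -0.11 in WT and -0.07 in KO over all genes, and -0.64 and -1.04 over the 43 and 44 members with that depth.

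Called the same way in both genotypes were 3 members that rose, Ltbp2, Mstn and Smurf2, and 16 that fell, Tgfb3, Ltbp1, Ltbp4, Bmp2, Bmp4, Bmp6, Bmp7, Fstl3, Chrd, Bmpr2, Tgfbr3, Bambi, Ski, Skil, Id3 and Id4. These were 50% of the WT and 75% of the KO genes called higher, and 94.1% of the WT and 64% of the KO genes called lower. No member was called in opposite directions. The WT and KO comparisons used separate libraries, but all 4 groups shared 1 estimate of the spread. The libraries of the 2 states did not overlap for 34 of 53 members in WT, 7 higher and 27 lower, and for the same numbers in KO. Over all tested genes 56% had no overlap in WT (17.6% higher, 38.4% lower) and 54.4% in KO (18.3% higher, 36.1% lower).

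**Figure D2:**
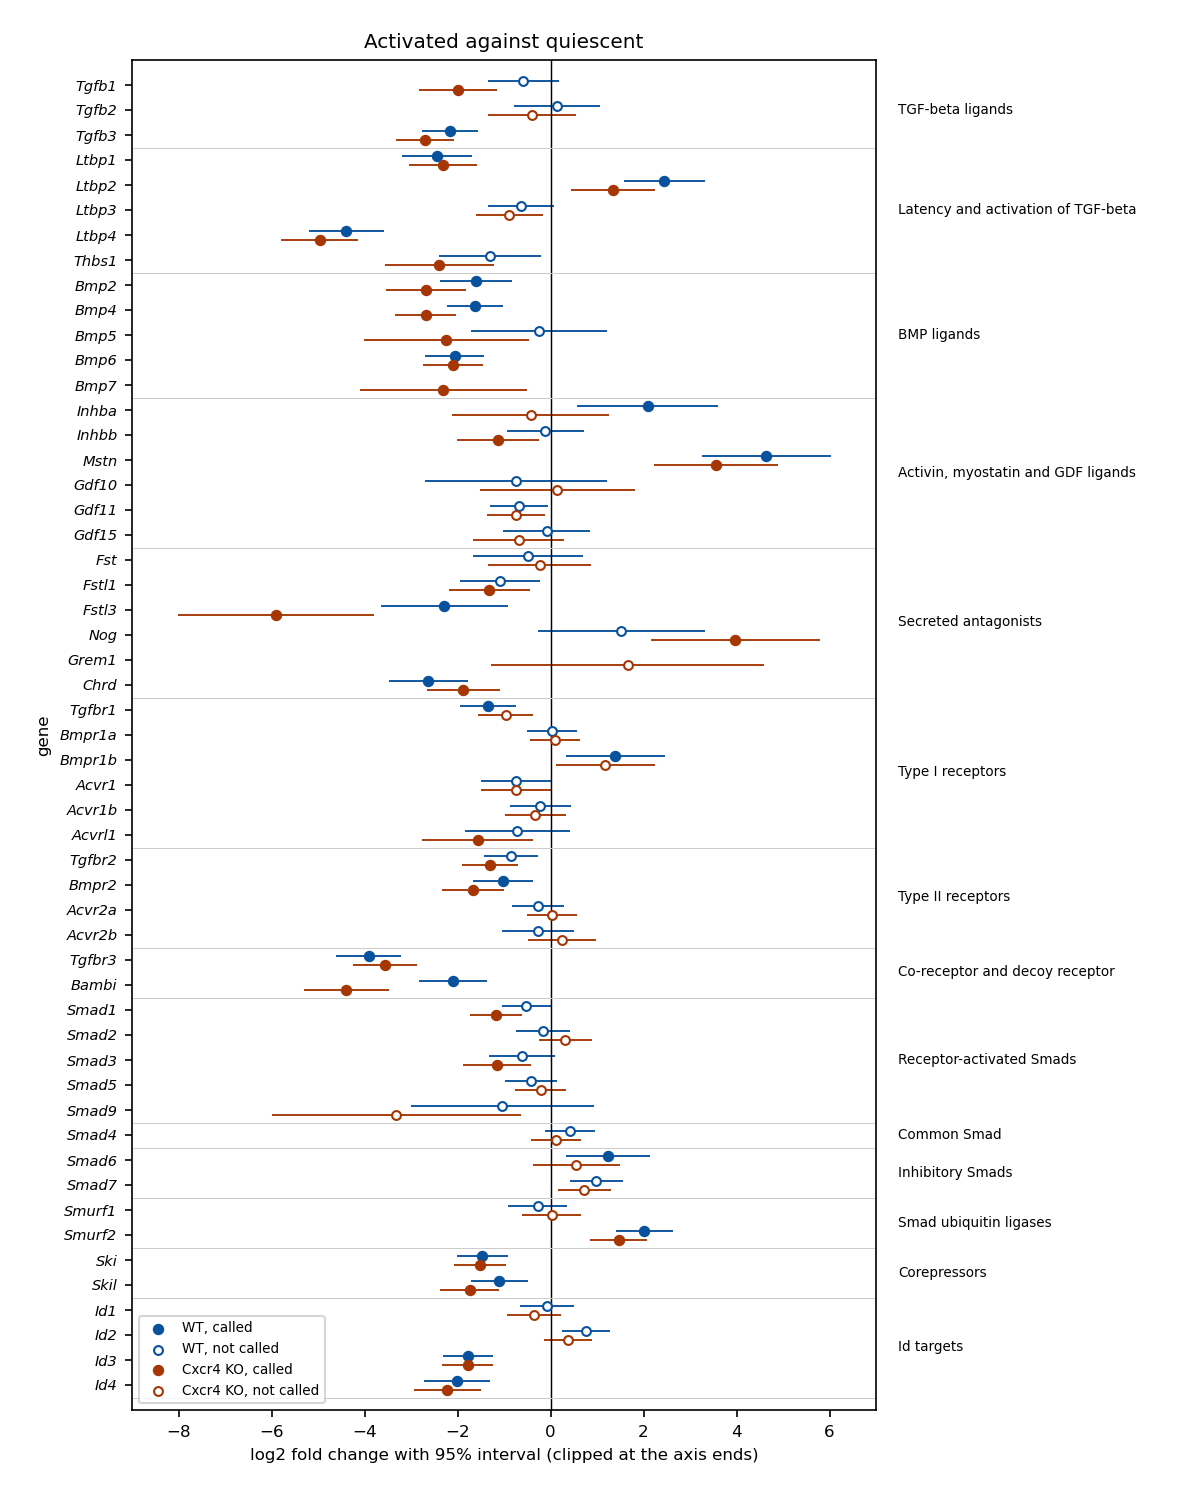
Log2 fold change of activated against quiescent cells (x axis) for the 53 genes (rows, by role) in WT (blue) and Cxcr4 KO (brown), with bars for the 95% interval and filled circles for called genes. Values for Bmp7 and Grem1 in WT are left out because both activated WT libraries had 0 counts, and most filled circles lie left of 0, with Ltbp4 at -4.39 in WT and -4.97 in KO, while Mstn stands at 4.64 and 3.56.

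Of the 3 TGF-beta ligands, Tgfb3 fell in both genotypes. Tgfb3 had 94.4, 110.3, 69.2 and 77.1 CPM in quiescent WT, 73.1, 69.1, 94.2 and 68.3 CPM in quiescent KO, 18.6 and 21.0 CPM in activated WT and 10.8 and 12.5 CPM in activated KO libraries, with a log2 fold change of -2.15 (SE 0.29, edgeR adjusted p = 1.32e-05) in WT and -2.70 (SE 0.30, edgeR adjusted p = 1.33e-06) in KO. Every activated library lay under every quiescent one. Tgfb1 had 63.6, 63.6, 52.2 and 75.5 CPM in quiescent WT, 67.3, 42.5, 72.1 and 74.9 CPM in quiescent KO, 63.2 and 19.7 CPM in activated WT and 11.8 and 20.5 CPM in activated KO libraries. It fell in KO, with a log2 fold change of -1.98 (SE 0.40, edgeR adjusted p = 0.000731), and in WT it gave -0.59 (SE 0.36, edgeR adjusted p = 0.216), with WT activated 1 inside the quiescent range. Without that library Tgfb1 was called lower in WT as well, at -1.62 (edgeR adjusted p = 0.00970). Tgfb2 was not called, at 0.14 in WT (95% interval -0.78 to 1.06) and -0.40 in KO (-1.35 to 0.54).

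The genes named as latent TGF-beta binding proteins went apart. Ltbp4 had 1302, 1174, 1138 and 1138 CPM in quiescent WT, 1068, 849, 1165 and 1440.3 CPM in quiescent KO, 74.5 and 37.7 CPM in activated WT and 46.0 and 26.5 CPM in activated KO libraries. It fell with a log2 fold change of -4.39 (SE 0.38, edgeR adjusted p = 1.01e-07) in WT and -4.97 (SE 0.40, edgeR adjusted p = 3.52e-08) in KO. The states lay far apart with no overlap. Ltbp1 fell from 154 ± 22.1 CPM (SD, n = 4) to 30.2 and 26.3 CPM in WT, with a log2 fold change of -2.44 (SE 0.36, edgeR adjusted p = 3.38e-05), and in KO the value was -2.31 (SE 0.35, edgeR adjusted p = 4.80e-05). Ltbp2 ran the other way and had 12.1, 11.2, 4.69 and 6.41 CPM in quiescent WT, 8.29, 10.6, 6.85 and 5.52 CPM in quiescent KO, 65.8 and 26.7 CPM in activated WT and 11.6 and 27.8 CPM in activated KO libraries. It was called higher in both genotypes, at 2.45 (SE 0.42, edgeR adjusted p = 0.000169) in WT and 1.34 (SE 0.43, edgeR adjusted p = 0.0223) in KO. The KO call was lost without KO activated 2, at 0.58 (edgeR adjusted p = 0.500), and with the replicate block, at 0.94 (edgeR adjusted p = 0.103). Ltbp3 was called in neither, at -0.64 (SE 0.34, edgeR adjusted p = 0.155) in WT and -0.89 (SE 0.34, edgeR adjusted p = 0.0526) in KO, but was called lower in KO without KO activated 1, at -1.64 (edgeR adjusted p = 0.00966), and without KO quiescent 1, at -1.02 (edgeR adjusted p = 0.0292). Thbs1 had 511, 534, 479 and 444 CPM in quiescent WT, 374, 321, 779 and 532 CPM in quiescent KO, 340.5 and 54.7 CPM in activated WT and 48.5 and 142 CPM in activated KO libraries. It was called lower in KO, -2.39 (SE 0.56, edgeR adjusted p = 0.00264), and in WT it gave -1.31 (SE 0.52, edgeR adjusted p = 0.0664). Thbs1 was called lower in WT with no filter on low counts, at -1.30 (edgeR adjusted p = 0.000431), and with DESeq2, at -1.29 (adjusted p = 0.0269). Without WT activated 1, the WT value of Thbs1 was -3.09, and without KO activated 1 the KO call was lost, at -1.83.

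All 5 BMP ligands were called lower in KO cells and 4 of 5 in WT cells. Bmp4 had 95.4, 82.9, 143 and 151 CPM in quiescent WT, 122, 105, 103 and 116 CPM in quiescent KO, 36.6 and 40.3 CPM in activated WT and 14.9 and 19.8 CPM in activated KO libraries, and fell with a log2 fold change of -1.62 (SE 0.29, edgeR adjusted p = 0.000275) in WT and -2.68 (SE 0.31, edgeR adjusted p = 2.29e-06) in KO. Bmp2 had 55.6, 59.0, 44.6 and 54.6 CPM in quiescent WT, 47.9, 37.2, 50.5 and 41.9 CPM in quiescent KO, 26.5 and 7.01 CPM in activated WT and 8.48 and 5.48 CPM in activated KO libraries, and gave -1.60 (SE 0.37, edgeR adjusted p = 0.00270) in WT and -2.67 (SE 0.41, edgeR adjusted p = 4.83e-05) in KO. For both genes every activated library was under every quiescent one. The WT call for Bmp2 was lost without WT activated 2, at -0.96 (edgeR adjusted p = 0.0893). Bmp6, known for its part in iron regulation, fell with a log2 fold change of -2.06 (SE 0.31, edgeR adjusted p = 3.88e-05) in WT and -2.10 (SE 0.31, edgeR adjusted p = 2.85e-05) in KO. Bmp7 had 6, 7.02, 2.68 and 1.40 CPM in quiescent WT, 2.40, 3.89, 3.70 and 2.03 CPM in quiescent KO, 0 and 0 CPM in activated WT and 0.514 and 0.684 CPM in activated KO libraries. With 0 counts in both activated WT libraries against 304 in the quiescent ones, Bmp7 was at least 11.1-fold lower in WT, taking 3 counts over the activated group as the floor. Such floors and the counting intervals given below cover counting error only. In KO it held 5 counts and gave -2.30 (SE 0.86, edgeR adjusted p = 0.0459), a call lost in 8 of the 12 fits that left out 1 library, among them those without KO activated 1 or KO activated 2. Bmp5 had 4.18, 4.33, 2.81 and 2.02 CPM in quiescent WT, 5.48, 1.43, 5.73 and 1.18 CPM in quiescent KO, 3.27 and 2.19 CPM in activated WT and 0.771 and 0.684 CPM in activated KO libraries. It was called only in KO, at -2.24 (SE 0.85, edgeR adjusted p = 0.0477), against -0.25 (SE 0.70, edgeR adjusted p = 0.798) in WT, and that call was lost in 9 of the 12 fits that left out 1 library, again including both activated KO libraries.

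Among activins, myostatin and growth differentiation factors, Mstn rose in both genotypes. Mstn had 0.783, 0.497, 0.746 and 0.482 CPM in quiescent WT, 1.10, 0.410, 2.08 and 0.142 CPM in quiescent KO, 10.1 and 22.3 CPM in activated WT and 10.3 and 12.3 CPM in activated KO libraries. Its log2 fold change was 4.64 (SE 0.66, edgeR adjusted p = 2.43e-05) in WT and 3.56 (SE 0.64, edgeR adjusted p = 0.000242) in KO, and every activated library stood above every quiescent one. The summed level of 7 mature muscle fibre markers, such as Acta1 and Ckm, moved with it, and was 256 to 868 CPM in quiescent against 6167 to 15210.1 CPM in activated libraries, with 7 of 7 called higher in each genotype. Their part in the rise was not tested. Inhba encodes the subunit of activin A, a ligand of the Smad2 and Smad3 branch. Inhba had 18.0, 17.6, 13.2 and 8.96 CPM in quiescent WT, 10.8, 9.09, 20.2 and 23.8 CPM in quiescent KO, 118 and 2.19 CPM in activated WT and 2.57 and 21.0 CPM in activated KO libraries. It was called higher in WT, 2.09 (SE 0.73, edgeR adjusted p = 0.0359), and gave -0.43 (SE 0.81, edgeR adjusted p = 0.684) in KO. WT activated 1 decided that call, since without it the WT value turned to -2.64 (edgeR adjusted p = 0.0611). The call was also lost without WT quiescent 1, 3 or 4 in turn, with edgeR adjusted p from 0.0570 to 0.0780. It was lost as well with DESeq2 (adjusted p = 0.115), with the robust fit (edgeR adjusted p = 0.165) and in the fit with the replicate block (edgeR adjusted p = 0.1). Inhbb, the activin B subunit, had 38.9, 26.9, 31.4 and 35.5 CPM in quiescent WT, 43.6, 16.3, 20.9 and 32.2 CPM in quiescent KO, 43.6 and 16.6 CPM in activated WT and 16.7 and 9.35 CPM in activated KO libraries, and was called only in KO, -1.12 (SE 0.42, edgeR adjusted p = 0.0468), against -0.11 (SE 0.39, edgeR adjusted p = 0.842) in WT. The KO call of Inhbb was lost in 7 of the 12 fits that left out 1 library, and without KO activated 2 the value was -0.74. That call was also lost with a filter on a mean count of at least 10 (edgeR adjusted p = 0.0544) and on the compared groups alone (edgeR adjusted p = 0.0656). Leaving out the ribosomal RNA gene ended it too (edgeR adjusted p = 0.0508). Gdf10, Gdf11 and Gdf15 passed in neither genotype. For Gdf15, a stress-induced ligand, WT activated 1 stood at 91.8 CPM and the other activated libraries at 12.7 to 28.7 CPM. Without WT activated 1, Gdf15 was called lower in WT, at -2.08 (edgeR adjusted p = 0.00213).

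The secreted antagonists bind ligands and keep them from receptors. Fstl3, a follistatin-like inhibitor of activin and myostatin, had 8.46, 7.38, 9.25 and 8.43 CPM in quiescent WT, 6.57, 5.26, 7.56 and 11.3 CPM in quiescent KO, 2.78 and 0 CPM in activated WT and 0 and 0.228 CPM in activated KO libraries. It was called lower in WT, -2.28 (SE 0.65, edgeR adjusted p = 0.0120), and in KO, where 1 count remained of 624 and the ratio of activated to quiescent was 0.0153 with an exact 95% counting interval of 0.000387 to 0.0856. The WT call was lost without WT activated 2, at -1.53 (edgeR adjusted p = 0.127). Chrd, which encodes the BMP antagonist chordin, had 13.8, 12.3, 14 and 13.2 CPM in quiescent WT, 13.9, 12.9, 11.3 and 11.2 CPM in quiescent KO, 2.12 and 2.19 CPM in activated WT and 2.83 and 3.88 CPM in activated KO libraries. It gave -2.63 (SE 0.40, edgeR adjusted p = 5.55e-05) in WT and -1.87 (SE 0.37, edgeR adjusted p = 0.000635) in KO, and the states did not overlap. Fstl1 had 286, 363, 248 and 290.4 CPM in quiescent WT, 120.2, 207, 378 and 335 CPM in quiescent KO, 198 and 79.7 CPM in activated WT and 81.4 and 128 CPM in activated KO libraries, and fell only in KO by the rule, -1.32 (SE 0.41, edgeR adjusted p = 0.0193), beside -1.09 (SE 0.41, edgeR adjusted p = 0.0503) in WT. The Fstl1 call in KO was lost without KO activated 1, at -1.04, without KO quiescent 3, and with the replicate block. In WT the gene was called lower with DESeq2 (adjusted p = 0.0254) and with no filter on low counts (edgeR adjusted p = 0.00453). It was called there too with DESeq2 size factors (edgeR adjusted p = 0.0488) and on the compared groups alone (edgeR adjusted p = 0.0231). Without WT activated 1 the WT value of Fstl1 was -1.82. Nog, which encodes the BMP antagonist noggin, had 0.992, 1.35, 1.14 and 0.193 CPM in quiescent WT, 0.261, 0.205, 0.374 and 0.331 CPM in quiescent KO, 4.08 and 0.876 CPM in activated WT and 1.28 and 8.21 CPM in activated KO libraries. It was called higher in KO, 3.97 (SE 0.87, edgeR adjusted p = 0.00153), and gave 1.52 (SE 0.86, edgeR adjusted p = 0.180) in WT, and without KO activated 2 the KO value was 2.10 (edgeR adjusted p = 0.313). Fst, which encodes follistatin, was not called, at -0.49 in WT and -0.23 in KO. Grem1 held 0 counts in activated WT and 10 in activated KO libraries, all in KO activated 2.

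Of 6 type I receptor genes, Bmpr1b was called higher and Tgfbr1 lower in WT, and Acvrl1 was called lower in KO. Tgfbr1, the TGF-beta type I receptor, had 137, 117, 162 and 169 CPM in quiescent WT, 217, 131, 117 and 167 CPM in quiescent KO, 62.6 and 52.1 CPM in activated WT and 88.9 and 73.2 CPM in activated KO libraries. It gave -1.35 (SE 0.29, edgeR adjusted p = 0.00148) in WT and -0.96 (SE 0.28, edgeR adjusted p = 0.0129) in KO, which missed the fold threshold. The states overlapped in neither genotype. Tgfbr1 was called lower in KO without KO quiescent 2, at -1.02 (edgeR adjusted p = 0.0111), and without KO quiescent 3, at -1.08 (edgeR adjusted p = 0.00874). Bmpr1b, a BMP type I receptor, had 2.40, 4.82, 2.28 and 4.09 CPM in quiescent WT, 1.51, 2.80, 6.23 and 3.07 CPM in quiescent KO, 9.48 and 8.32 CPM in activated WT and 8.48 and 7.07 CPM in activated KO libraries, with 1.40 (SE 0.51, edgeR adjusted p = 0.0462) in WT and 1.18 (SE 0.51, edgeR adjusted p = 0.0818) in KO. The WT call of Bmpr1b was lost in 6 of the 12 fits that left out 1 library. Among them were those without WT activated 1 or WT activated 2. Without KO quiescent 3 Bmpr1b was called higher in KO, at 1.66 (edgeR adjusted p = 0.0188). Acvrl1 encodes the type I receptor of endothelial cells for BMP9 and BMP10, and had 79.8, 81.5, 38.9 and 43.1 CPM in quiescent WT, 99.5, 32.0, 67.5 and 32.9 CPM in quiescent KO, 58.8 and 13.1 CPM in activated WT and 10.0 and 29 CPM in activated KO libraries. It was called lower in KO, -1.57 (SE 0.57, edgeR adjusted p = 0.0412), and gave -0.71 (SE 0.54, edgeR adjusted p = 0.303) in WT. The KO call was lost with the robust fit (edgeR adjusted p = 0.144) and with a filter on a mean count of at least 10 (edgeR adjusted p = 0.0523). It was also lost without KO activated 1, at -1.0, and without 3 of the quiescent libraries. Without WT activated 1 the WT value of Acvrl1 was -2.13. The summed level of 8 endothelial markers was high and low in many of the same libraries: it was 1459, 1459.7, 599 and 694 CPM in quiescent WT, 1614, 546, 1378 and 338 CPM in quiescent KO, 601 and 119 CPM in activated WT and 115 and 374 CPM in activated KO libraries. No endothelial marker was at 0 in every library of a group, and their part in the values of Acvrl1 was not tested. Bmpr1a, Acvr1 and Acvr1b were not called, with log2 fold changes of 0.04, -0.74 and -0.22 in WT and 0.10, -0.75 and -0.32 in KO.

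Of the 4 type II receptors, Bmpr2 fell in both genotypes, with a log2 fold change of -1.02 (SE 0.31, edgeR adjusted p = 0.0165) in WT and -1.67 (SE 0.32, edgeR adjusted p = 0.000442) in KO. Its WT value lay at the fold threshold, and the call was lost in 5 of 8 alternative fits and in 6 of the 12 fits that left out 1 library, both activated WT libraries included. Tgfbr2, the TGF-beta type II receptor, had 127, 121, 113 and 155 CPM in quiescent WT, 116, 95.9, 140.3 and 162 CPM in quiescent KO, 87.2 and 55.2 CPM in activated WT and 46.2 and 58.4 CPM in activated KO libraries. It was called lower in KO, -1.30 (SE 0.29, edgeR adjusted p = 0.00165), and passed only the p threshold in WT, -0.85 (SE 0.28, edgeR adjusted p = 0.0275). Every activated library was below every quiescent one in both genotypes. Without WT activated 1 the WT value was called, at -1.15 (edgeR adjusted p = 0.0371), and without KO activated 1 the KO value was not, at -1.14 (edgeR adjusted p = 0.0501). The activin type II receptors Acvr2a and Acvr2b were not called, with 95% intervals of -0.82 to 0.28 and -1.03 to 0.50 in WT and -0.52 to 0.56 and -0.49 to 0.98 in KO.

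The deepest falls among membrane proteins were in Tgfbr3 and Bambi. Tgfbr3 encodes betaglycan, the co-receptor that presents TGF-beta2 and inhibin. Tgfbr3 had 391, 311, 366 and 345 CPM in quiescent WT, 376, 258, 280.4 and 337 CPM in quiescent KO, 27.1 and 19.3 CPM in activated WT and 18.8 and 34.0 CPM in activated KO libraries. It fell with a log2 fold change of -3.91 (SE 0.34, edgeR adjusted p = 8.66e-08) in WT and -3.56 (SE 0.33, edgeR adjusted p = 1.61e-07) in KO. Bambi encodes a decoy receptor that resembles a type I receptor but has no kinase. Bambi had 47.2, 36.3, 44.7 and 44.6 CPM in quiescent WT, 40.2, 40.9, 36.3 and 35.1 CPM in quiescent KO, 14.5 and 4.38 CPM in activated WT and 1.80 and 1.83 CPM in activated KO libraries, and gave -2.09 (SE 0.35, edgeR adjusted p = 0.000140) in WT and -4.39 (SE 0.44, edgeR adjusted p = 4.22e-07) in KO. For both genes the activated libraries were all under the quiescent ones.

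None of the receptor-activated Smads was called in WT, and Smad1 and Smad3 were called lower in KO. Smad1, of the BMP branch, had 77.4, 84.9, 67.6 and 76.9 CPM in quiescent WT, 75.1, 73.2, 86.1 and 101 CPM in quiescent KO, 61.4 and 45.1 CPM in activated WT and 43.7 and 30.8 CPM in activated KO libraries. Its log2 fold change was -1.17 (SE 0.26, edgeR adjusted p = 0.00185) in KO and -0.52 (SE 0.25, edgeR adjusted p = 0.127) in WT, and without KO activated 2 the KO value was -0.93 (edgeR adjusted p = 0.0803). Smad3, of the TGF-beta branch, had 102, 68.8, 96.1 and 127 CPM in quiescent WT, 113, 60.5, 94.5 and 144 CPM in quiescent KO, 83.3 and 44.2 CPM in activated WT and 43.7 and 49.5 CPM in activated KO libraries, with -1.15 (SE 0.35, edgeR adjusted p = 0.0155) in KO and -0.61 (SE 0.34, edgeR adjusted p = 0.168) in WT. The KO call of Smad3 was lost without either activated KO library, without KO quiescent 4 and with the replicate block, at -0.82 (edgeR adjusted p = 0.0223). Smad2, Smad5 and Smad9 were not called. Nor was Smad4 called, the partner of all receptor-activated Smads, at 0.41 in WT (95% interval -0.13 to 0.95) and 0.12 in KO (-0.42 to 0.66). Smad9 had 1 count left in activated KO against 105 in quiescent KO libraries. That was a ratio of 0.0910 with an exact 95% counting interval of 0.00228 to 0.518. With a filter on a mean count of at least 10, Smad9 was called lower in KO, at -3.23 (edgeR adjusted p = 0.0427). It was called there too without KO quiescent 2, at -3.50 (edgeR adjusted p = 0.0379). The inhibitory Smads are made in response to the pathway and shut it down at the receptor. Smad7 had 95.3, 93.6, 125 and 139 CPM in quiescent WT, 148, 88.1, 105 and 120.2 CPM in quiescent KO, 284 and 164 CPM in activated WT and 184 and 197 CPM in activated KO libraries. It passed the p threshold but not the fold threshold in both, at 0.99 (SE 0.27, edgeR adjusted p = 0.00926) in WT and 0.72 (SE 0.27, edgeR adjusted p = 0.0467) in KO, with every activated above every quiescent library. The WT value of Smad7 passed the fold threshold and was called in 6 of 8 alternative fits. Smad6, which inhibits BMP receptors, had 23.3, 16.7, 14.1 and 12.8 CPM in quiescent WT, 27.9, 12.1, 15 and 11 CPM in quiescent KO, 60.1 and 17.5 CPM in activated WT and 15.4 and 33.1 CPM in activated KO libraries. It was called higher in WT, 1.25 (SE 0.43, edgeR adjusted p = 0.0355), and gave 0.56 (SE 0.45, edgeR adjusted p = 0.317) in KO, and without WT activated 1 the WT value was 0.15 (edgeR adjusted p = 0.840). Without WT quiescent 2, 3 or 4 in turn the call was lost as well, with edgeR adjusted p from 0.0532 to 0.0736. The robust fit (edgeR adjusted p = 0.0505) and the replicate block (0.87, edgeR adjusted p = 0.131) ended it too.

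The ubiquitin ligase Smurf2, which marks Smads and receptors for degradation, rose in both genotypes. Smurf2 had 75.4, 68.1, 94.3 and 100.4 CPM in quiescent WT, 64.8, 53.6, 82.8 and 111 CPM in quiescent KO, 401 and 283 CPM in activated WT and 276 and 154 CPM in activated KO libraries. The change was 2.02 (SE 0.30, edgeR adjusted p = 3.36e-05) in WT and 1.46 (SE 0.30, edgeR adjusted p = 0.000779) in KO, with no overlap of states, and without KO activated 1 the KO value was 0.97 (edgeR adjusted p = 0.0712). Its relative Smurf1 was not called, with 95% intervals of -0.91 to 0.36 in WT and -0.60 to 0.65 in KO. The corepressors Ski and Skil, which bind Smads and silence their targets, both fell. Ski had 515, 434, 511 and 567 CPM in quiescent WT, 549.6, 355, 449.6 and 518 CPM in quiescent KO, 208 and 159 CPM in activated WT and 170.3 and 158 CPM in activated KO libraries, and gave -1.46 (SE 0.27, edgeR adjusted p = 0.000309) in WT and -1.51 (SE 0.27, edgeR adjusted p = 0.000208) in KO. Skil fell with a log2 fold change of -1.10 (SE 0.29, edgeR adjusted p = 0.00797) in WT and -1.74 (SE 0.31, edgeR adjusted p = 0.000199) in KO, and its WT call was lost without WT activated 2, at -0.64 (edgeR adjusted p = 0.268).

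The 4 Id genes split into pairs. Id3 had 751, 699, 901 and 830.1 CPM in quiescent WT, 628, 619.8, 571 and 615 CPM in quiescent KO, 275 and 189.6 CPM in activated WT and 179 and 175 CPM in activated KO libraries, and fell with a log2 fold change of -1.77 (SE 0.26, edgeR adjusted p = 3.35e-05) in WT and -1.78 (SE 0.26, edgeR adjusted p = 2.87e-05) in KO. Id4 fell with a log2 fold change of -2.01 (SE 0.34, edgeR adjusted p = 0.000147) in WT and -2.22 (SE 0.35, edgeR adjusted p = 5.57e-05) in KO. Both had activated libraries wholly under the quiescent ones. Id1 had 173, 155, 153 and 162 CPM in quiescent WT, 189, 119, 143 and 99.4 CPM in quiescent KO, 187 and 118 CPM in activated WT and 122 and 93.3 CPM in activated KO libraries, and was not called, with -0.07 in WT (95% interval -0.65 to 0.50) and -0.36 in KO (-0.94 to 0.23). Id2 gave 0.77 (SE 0.24, edgeR adjusted p = 0.0226) in WT, which passed the p threshold alone, and 0.38 (SE 0.25, edgeR adjusted p = 0.230) in KO. Of the sequences printed above, those of Id2 and Id4 held GGCGCC and that of Id3 did not.

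**Figure D3:**
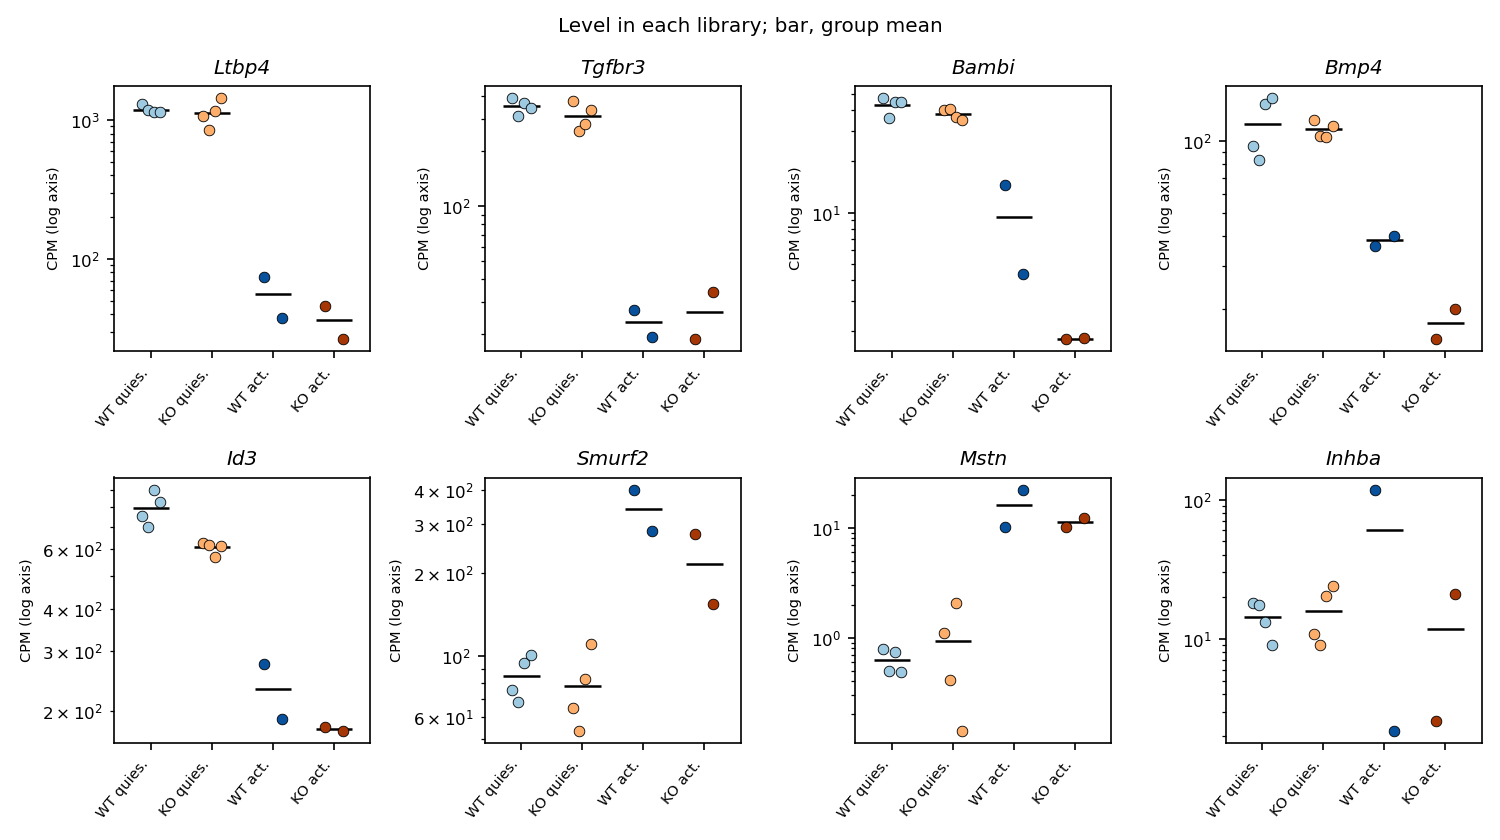
Level of 8 members in each library (points) in CPM on a log axis, by group, with bars for group means. Ltbp4, Tgfbr3, Bambi, Bmp4 and Id3 lie lower and Smurf2 and Mstn higher in all activated than in all quiescent libraries, while the 2 activated WT libraries of Inhba stand at 118 and 2.19 CPM.

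Members called on activation in 1 genotype and not the other numbered 4 in WT and 10 in KO. These calls do not show that the genotypes differed, because the test of the difference, the KO effect in activated against that in quiescent cells, passed for 0 of 53 members (0% of all genes were called). At unadjusted p under 0.05 were 7 of 53 members, a larger share than the 6.59% of all genes, which was not matched for mean count. With no filter on low counts 2 members passed that test, Inhba at -2.55 (edgeR adjusted p = 0.000153) and Bambi at -2.30 (edgeR adjusted p = 0.0131). With DESeq2 Bambi passed at -2.36 (adjusted p = 0.0268). The activated libraries of Inhba overlapped between genotypes, at 118 and 2.19 CPM in WT and 2.57 and 21.0 CPM in KO.

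Other cell types' markers moved with the state as well. The 10 satellite cell markers, Pax7 among them, summed to 3682 to 6310.1 CPM in quiescent and 1102 to 1681 CPM in activated libraries, and 9 of 10 were called lower in WT and 10 of 10 in KO. Fibroadipogenic progenitors, the connective tissue cells of muscle, had 8 markers that summed to 427 to 3343 CPM and 247 to 723 CPM, with 4 of 8 called lower in each genotype and 1 called higher in KO. For the 8 endothelial markers the ranges were 338 to 1614 and 115 to 601 CPM, with 5 of 8 lower in WT and 4 of 8 in KO. The 7 smooth muscle and pericyte markers summed to 481 to 1833 CPM in quiescent and 184 to 430.3 CPM in activated libraries, with 4 and 5 called lower. The 5 glial markers summed to 263 to 612 CPM in quiescent and 60.1 to 201 CPM in activated libraries, with 3 and 4 lower. The 8 blood cell markers summed to 87.8 to 370.3 CPM in quiescent and 40.7 to 67.1 CPM in activated libraries, with 4 and 5 lower, and the 5 tendon markers to 80.1 to 426 and 37.2 to 308 CPM, with 1 and 3 lower. No marker in these lists was at 0 in every library of a group. Between genotypes no marker was called in quiescent cells, and in activated cells 1 was, the glial marker Ngfr, lower in KO. The part of other cell types in the members' values was not tested.

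**Figure D4:**
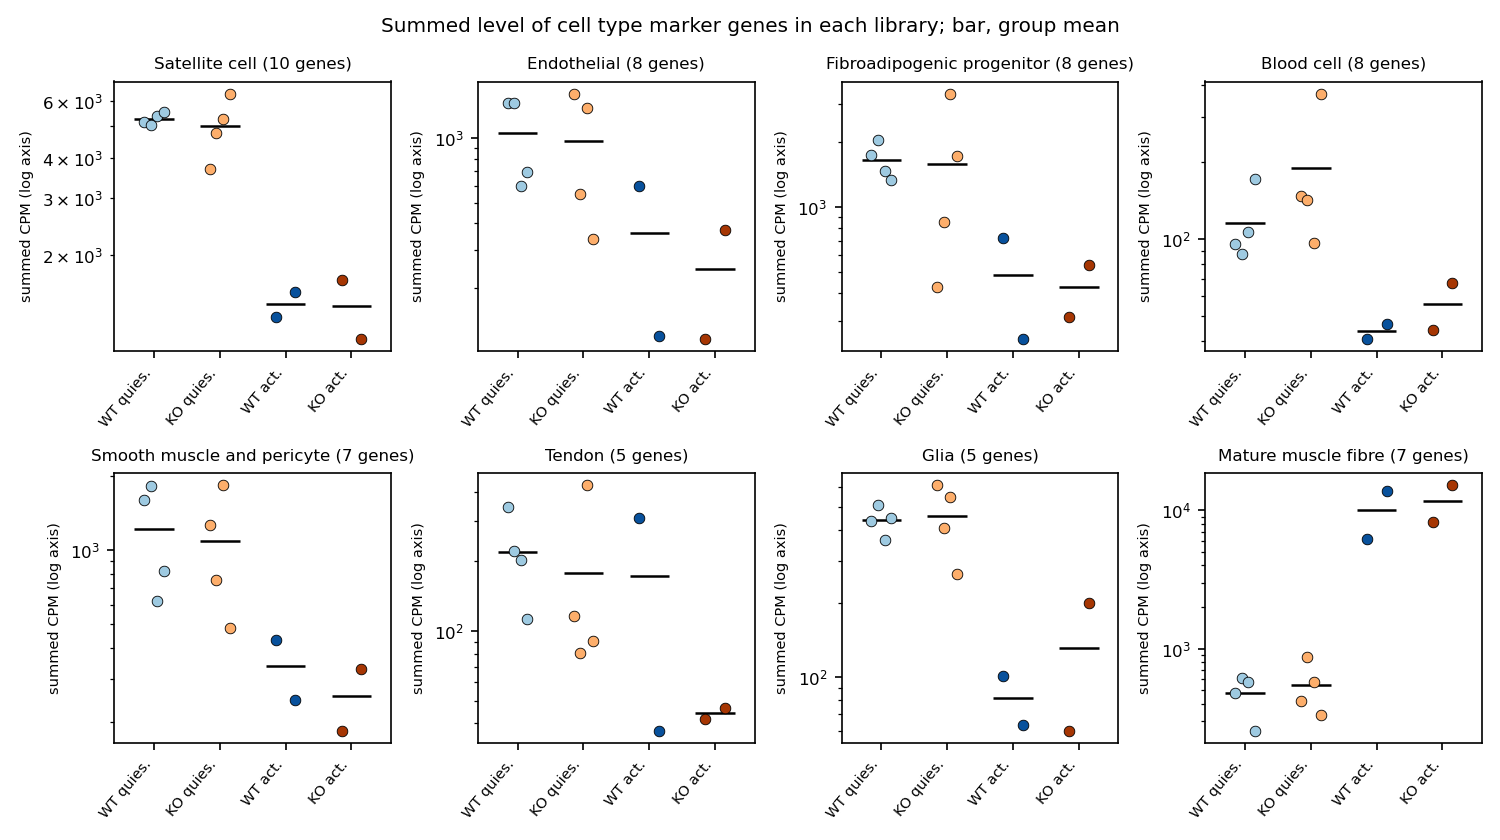
Summed level of each list of cell type markers in each library (points) in CPM on a log axis, by group, with bars for group means. Mature muscle fibre markers are higher in all activated libraries, satellite cell markers are lower, and WT activated 1 has the highest tendon and endothelial sums of the activated libraries, at 308 and 601 CPM.

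WT activated 1 stood apart from WT activated 2. Of the 49 members with at least 1 CPM in either library, 14 (28.6%) were at least 2-fold higher in WT activated 1 and 2 were at least 2-fold higher in WT activated 2, where 20.9% and 12.4% of all tested genes were. In the KO pair 2 members were at least 2-fold higher in KO activated 1 and 7 in KO activated 2 (4.08% and 14.3% of 49), where 11.3% and 18.3% of all tested genes were. WT activated 1 had 308 CPM of tendon markers and 601 CPM of endothelial markers, against 37.2 and 119 CPM in WT activated 2. The ribosomal RNA gene took 12.6% of its counts against 40.3%. Without WT activated 1, 3 members were called higher and 22 lower on activation in WT.

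The comparison of KO with WT asked whether loss of Cxcr4 from satellite cells changed the pathway's genes. In quiescent cells 0 of 53 members were called, where 0.0155% of all genes were, and 1 member had an unadjusted p under 0.05, as did 1.74% of all genes. DESeq2 called 0 members as well. The median log2 fold change of the members was -0.08, beside 0.02 over all genes. Of the 53 values 18 were above 0 and 35 below, where 53.4% of all genes were above 0. For 42 of 53 members the 95% interval lay inside 1 log2 unit in both directions, so that changes larger than 2-fold lay outside it. Libraries of the 2 genotypes failed to overlap for 1 member, Id3, where 1.7% of all tested genes did not overlap.

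Id3 had 751, 699, 901 and 830.1 CPM in the quiescent WT libraries and 628, 619.8, 571 and 615 CPM in the quiescent KO libraries, a log2 fold change of -0.39 (SE 0.19, edgeR adjusted p = 1.00), with an unadjusted p of 0.0604 and a 95% interval of -0.79 to 0.02. Every KO library was below every WT library, and the difference did not pass the test. Nog had the smallest unadjusted p, 0.0456, from the low levels given above: 3 of 4 WT libraries stood above all KO libraries and WT quiescent 4 was below them, for a value of -1.60 (SE 0.75, edgeR adjusted p = 1.00). Acvr1, a BMP and activin type I receptor, had 40.9, 41.4, 52.6 and 63.1 CPM in the quiescent WT libraries and 25.3, 27.4, 43.8 and 56.2 CPM in the quiescent KO libraries and gave -0.37 (SE 0.28, edgeR adjusted p = 1.00). Gdf11, a close relative of myostatin, had 22.5, 26.2, 22.9 and 25.1 CPM in the quiescent WT libraries and 19.6, 14.3, 23.8 and 22.4 CPM in the quiescent KO libraries and gave -0.27 (SE 0.22, edgeR adjusted p = 1.00). For both the genotypes overlapped, as they did for Mstn at 0.58 (SE 0.57, edgeR adjusted p = 1.00). KO quiescent 1 held the lowest sum of fibroadipogenic progenitor markers, 427 CPM against 859.5 to 3343 CPM in the other quiescent libraries. Its sum of satellite cell markers, 3682 CPM, was also the lowest of the quiescent libraries. Its endothelial and glial sums, 1614 and 612 CPM, were the highest. The same library had the lowest quiescent levels of Tgfb2, at 33.1 CPM, of Ltbp1, at 86.5 CPM, and of Fstl1, at 120.2 CPM. The highest quiescent levels of Tgfbr1, Acvrl1, Smad7, Smad6 and Fst were also in that library, at 217, 99.5, 148, 27.9 and 14.1 CPM. Across KO quiescent 1 to 4 the satellite cell sums were 3682, 4787, 5255 and 6310 CPM, and the progenitor sums 427, 859.5, 3343 and 1731 CPM. The part of any cell type in these levels was not tested. The count of called members was 0 without KO quiescent 1 too.

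In activated cells 0 of 53 members were called, where 0.0504% of all genes were. Of the members 11 had an unadjusted p under 0.05, against 8.37% of all genes. That share was not matched for mean count, which passed 100 for 9373 of the 25771 genes and 43 of the 53 members. DESeq2 called 2, Bambi and Bmp4. The median of the members was -0.39, beside 0.00 over all genes. Of the 53 values 16 were above 0 and 37 below, where 44.3% of all genes were above 0. The 95% interval lay inside 1 log2 unit for 13 members, and for the rest it reached past a 2-fold difference in at least 1 direction. Libraries did not overlap for 20 members, 7 higher and 13 lower in KO, where 24.7% of all tested genes did not overlap, 15.2% higher and 9.5% lower.

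Bambi stood closest to the threshold. It had 14.5 and 4.38 CPM in activated WT and 1.80 and 1.83 CPM in activated KO libraries, so both KO libraries were below both WT libraries. Its log2 fold change was -2.47 (SE 0.47, edgeR adjusted p = 0.0663), with an unadjusted p of 4.37e-05 and a 95% interval of -3.46 to -1.49. The call depended on the fit: Bambi passed with no filter on low counts (edgeR adjusted p = 0.000254), with a robust quasi-likelihood fit (edgeR adjusted p = 0.0346) and with DESeq2 (adjusted p = 0.00152). It also passed without WT activated 2, at -3.08 (edgeR adjusted p = 0.000829). The test of a KO effect that differs between states gave -2.29 (SE 0.53, edgeR adjusted p = 0.290) for Bambi.

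Bmp4 had 36.6 and 40.3 CPM in activated WT and 14.9 and 19.8 CPM in activated KO libraries, with both KO libraries under both WT libraries and a value of -1.14 (SE 0.33, edgeR adjusted p = 0.249), and it passed with DESeq2 at -1.20 (adjusted p = 0.0452). Bmp2 had 26.5 and 7.01 CPM in activated WT and 8.48 and 5.48 CPM in activated KO libraries and gave -1.34 (SE 0.44, edgeR adjusted p = 0.351), with KO activated 1 above WT activated 2. Tgfb1 had 63.2 and 19.7 CPM in activated WT and 11.8 and 20.5 CPM in activated KO libraries and gave -1.39 (SE 0.43, edgeR adjusted p = 0.313), with KO activated 2 just above WT activated 2. Fstl3, with 17 counts in WT and 1 in KO, gave a ratio of KO to WT of 0.0597 with an exact 95% counting interval of 0.00143 to 0.381, and 0.347 as its edgeR adjusted p. All 17 WT counts came from WT activated 1. For Bmp7 and Grem1, listed at 0 counts in both WT libraries, the KO libraries held 5 and 10 counts, at least 1.69-fold and 3.39-fold higher against the floor of 3 counts over the WT group. Neither passed, with edgeR adjusted p = 0.490 for Bmp7 and 0.590 for Grem1.

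The choice of activated WT library moved this comparison. Without WT activated 2, 6 members were called, all lower in KO: Tgfb1, Bmp2, Inhba, Gdf15, Fstl3 and Bambi. Without WT activated 1 none was called, nor without either KO library. The tendon markers, which WT activated 1 held at 308 CPM, summed to 41.9 and 46.8 CPM in the KO libraries, and their part in these values was not tested. Inhba, at 118 and 2.19 CPM in the WT libraries, gave -2.37 (SE 0.94, edgeR adjusted p = 0.483), and passed with no filter on low counts, as did Tgfb1 and Bambi.

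**Figure D5:**
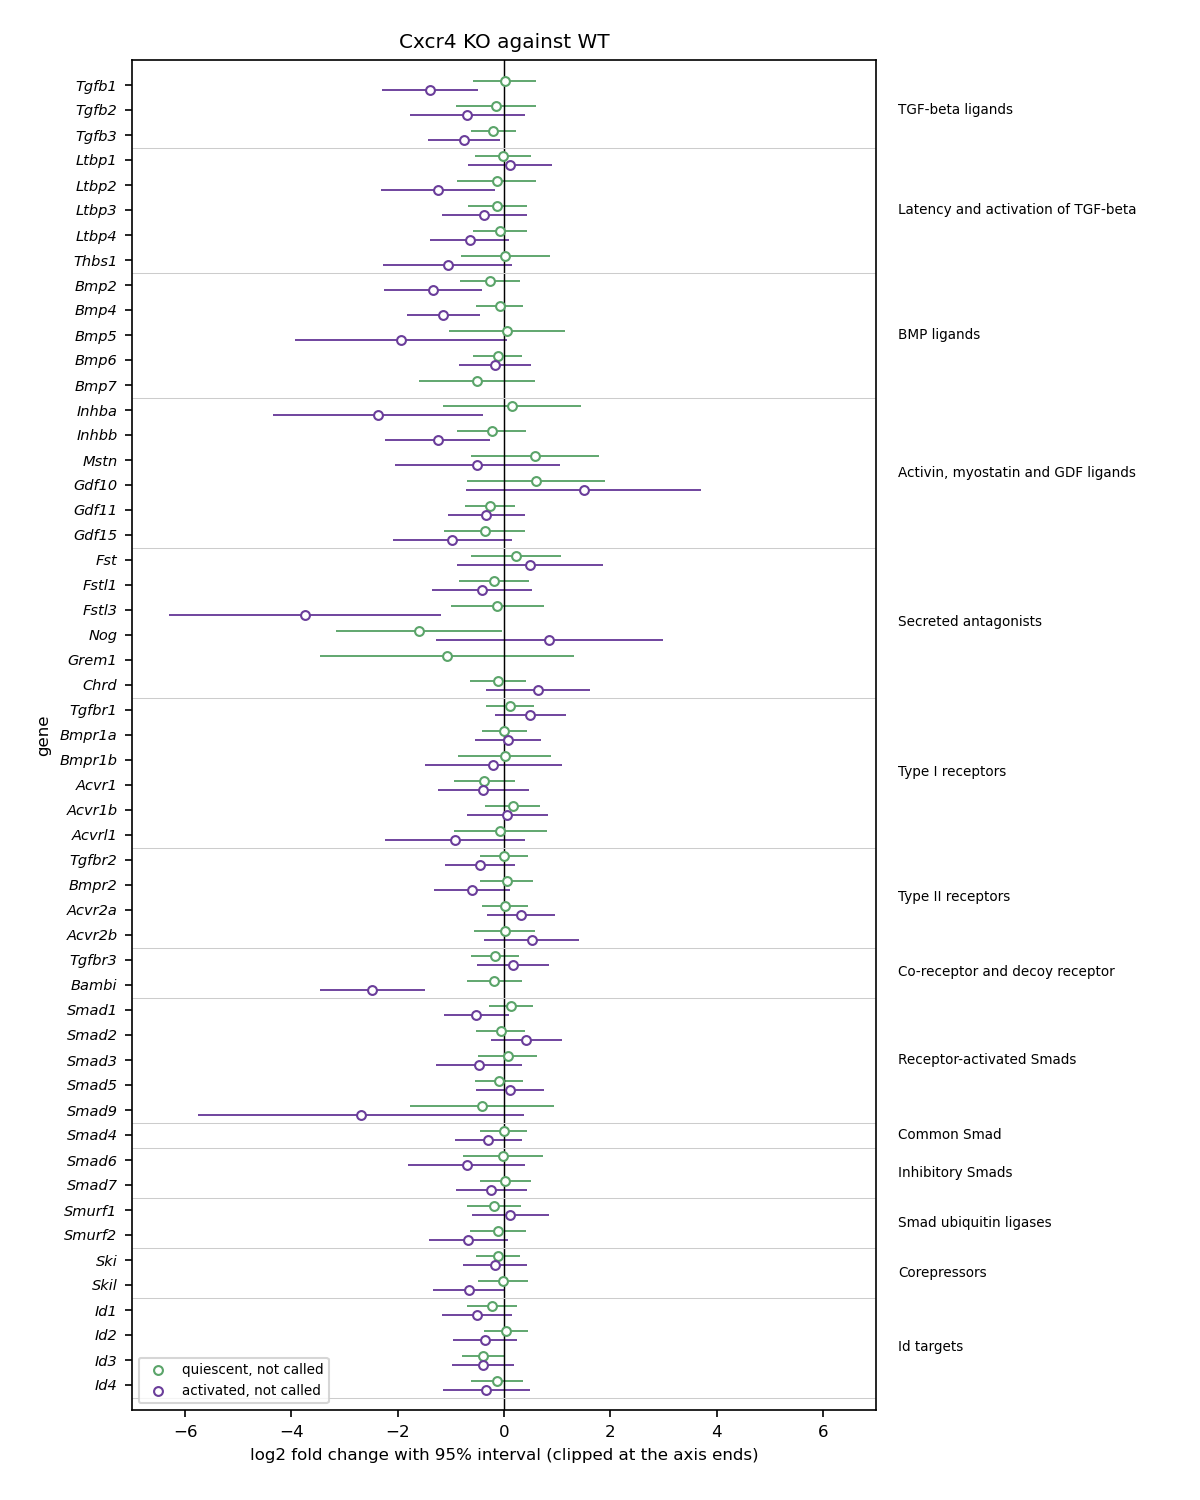
Log2 fold change of Cxcr4 KO against WT (x axis) for the 53 genes (rows, by role) in quiescent (green) and activated cells (purple), with bars for the 95% interval and open circles because no member was called. Values for Bmp7 and Grem1 in activated cells are left out because WT had 0 counts, and the intervals have a median width of 1.61 in activated and 1.05 in quiescent cells, with Bambi at -2.47 in activated and -0.18 in quiescent cells.

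The rest of the pathway was read from 92 further genes, of which 86 were tested. None was called by edgeR in KO against WT in quiescent or activated cells or in the difference between them, and DESeq2 called 0, 2 and 1. Of the 86, 0, 15 and 8 had an unadjusted p under 0.05, beside 1.74%, 8.37% and 6.59% of all genes. In activated cells and in the difference these were larger shares than over all genes. The shares over all genes include many genes with few counts and were not matched for mean count. The smallest adjusted p by edgeR was that of Vasn, which encodes the TGF-beta binding protein vasorin. The study itself, which used DESeq2, listed Vasn as differentially expressed in activated cells, lower in KO. Vasn had 129 and 27.1 CPM in activated WT and 16.2 and 12.1 CPM in activated KO libraries, and gave -2.49 (SE 0.57, edgeR adjusted p = 0.133), with WT activated 1 the highest library. On activation 9 of the 86 were called higher and 18 lower in WT, where 9.65% and 16.5% of all genes were, and 10 higher and 23 lower in KO, where 11.1% and 18.5% were. In both genotypes 7 rose and 14 fell, and without WT activated 1 the WT counts were 7 higher and 18 lower. By group in WT, 1 of 16 other ligands was called higher and 2 lower, 1 of 7 other receptors and co-receptors higher and 1 lower, and 2 of 28 extracellular modulators higher and 7 lower. Of 20 intracellular regulators 3 were called higher and 3 lower, and of 15 widely used target genes 2 higher and 5 lower. In KO the counts were 0 and 2 for ligands, 1 and 2 for receptors, 3 and 10 for extracellular modulators, 4 and 5 for intracellular regulators and 2 and 4 for target genes.

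Hjv, which encodes the BMP co-receptor hemojuvelin and is known from skeletal muscle and liver, had the largest mean rise among the 7 called higher in both genotypes. Hjv had 5.22, 5.68, 6.01 and 1.59 CPM in quiescent WT, 4.80, 8.13, 4.15 and 3.16 CPM in quiescent KO, 66.7 and 195 CPM in activated WT and 90.9 and 189 CPM in activated KO libraries, with 4.82 (SE 0.47, edgeR adjusted p = 4.31e-07) in WT and 4.80 (SE 0.47, edgeR adjusted p = 3.42e-07) in KO. Itgb6 encodes an integrin subunit that frees TGF-beta from its latent complex, and rose with a log2 fold change of 2.2 (SE 0.50, edgeR adjusted p = 0.00249) in WT and 3.62 (SE 0.46, edgeR adjusted p = 5.83e-06) in KO, from 1.72, 0.639, 1.10 and 1.11 CPM in quiescent to 3.59 and 7.44 CPM in activated WT libraries and from 1.15, 2.32, 1.66 and 2.31 to 17.5 and 28.3 CPM in KO. Tnc, which encodes the matrix protein tenascin C, had 53.8, 59.1, 39.2 and 60.7 CPM in quiescent WT, 54.1, 27.5, 122 and 88.6 CPM in quiescent KO, 643 and 493 CPM in activated WT and 313 and 182 CPM in activated KO libraries. It rose with a log2 fold change of 3.42 (SE 0.39, edgeR adjusted p = 2.10e-06) in WT and 1.76 (SE 0.38, edgeR adjusted p = 0.00152) in KO. Wwp1, a ubiquitin ligase of the same family as Smurf2, had 19.5, 16.5, 11.9 and 13.6 CPM in quiescent WT, 21.0, 17.8, 13.7 and 18.1 CPM in quiescent KO, 52.0 and 81.9 CPM in activated WT and 51.6 and 78.9 CPM in activated KO libraries, and gave 2.11 (SE 0.28, edgeR adjusted p = 1.19e-05) in WT and 1.89 (SE 0.28, edgeR adjusted p = 3.36e-05) in KO. For these 4 genes every activated library stood above every quiescent one of its genotype.

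Among the 14 called lower in both genotypes, Chrdl2, a chordin-like BMP antagonist, had the largest mean fall. Chrdl2 had 142, 125, 222 and 243 CPM in quiescent WT, 78.0, 111, 120.1 and 209.9 CPM in quiescent KO, 1.80 and 2.63 CPM in activated WT and 5.65 and 1.37 CPM in activated KO libraries, with -6.45 (SE 0.61, edgeR adjusted p = 2.48e-07) in WT and -5.23 (SE 0.55, edgeR adjusted p = 7.96e-07) in KO. Hey1, a transcription factor induced by both Notch and BMP signaling, had 115, 111, 158 and 162 CPM in quiescent WT, 39.1, 98.9, 127 and 132 CPM in quiescent KO, 11.3 and 2.63 CPM in activated WT and 10.0 and 8.44 CPM in activated KO libraries, and gave -4.15 (SE 0.53, edgeR adjusted p = 6.81e-06) in WT and -3.43 (SE 0.50, edgeR adjusted p = 3.10e-05) in KO. Tll1, a protease that cuts chordin, had 7.05, 5.11, 4.12 and 3.85 CPM in quiescent WT, 6.94, 3.35, 7.68 and 1.98 CPM in quiescent KO, 0.980 and 0.438 CPM in activated WT and 0 and 0.684 CPM in activated KO libraries, and Htra1, a secreted protease, had 75.2, 97.5, 51.3 and 59.6 CPM in quiescent WT, 36.0, 63.9, 95.8 and 66.1 CPM in quiescent KO, 19.0 and 3.94 CPM in activated WT and 7.19 and 7.30 CPM in activated KO libraries. Tll1 gave -2.66 (SE 0.81, edgeR adjusted p = 0.0181) in WT and -3.77 (SE 0.92, edgeR adjusted p = 0.00351) in KO, and Htra1 gave -2.52 (SE 0.47, edgeR adjusted p = 0.000422) and -3.17 (SE 0.50, edgeR adjusted p = 6.83e-05). For these 4 genes every activated library lay below every quiescent one of its genotype.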

How the data were processed

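RNA-seq was run on 12 libraries of sorted satellite cells in 4 groups. The authors trimmed reads with Trim Galore 0.6.0, aligned them with STAR 2.7.2a and counted them with Rsubread, and they used DESeq2 1.34.0, per the study's methods and processing notes. The deposited raw counts per gene are whole reads. Whether counting used strand, and how reads with several matches were treated, is not given in the sources used here, so reads of overlapping or antisense genes cannot be told apart. A deposited FPKM table was not used.

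Counts were tested with edgeR 4.0.16 (R 4.3.3): filterByExpr, TMM scaling, 1 mean per group over all 12 libraries, and the quasi-likelihood test with Benjamini-Hochberg adjustment over 25771 genes. A call needed an adjusted p under 0.05, a log2 fold change past 1 and a mean count over 10. DESeq2 1.42.0 served as an alternative, beside other scaling, filters, fits and left-out libraries. Scripts were tested on simulated data. Values per library are given for the 5 members most abundant per length, the 6 with the largest mean change in each direction among those called in both genotypes, those called in 1 genotype, and the 5 with the smallest p in each comparison of KO with WT, and for 4 other pathway genes in each direction. Chrd, Smad7 and Vasn were added after their values were seen. The members, the other pathway genes and the marker lists were chosen with earlier results of these data known. Upstream sequences are from RefSeq on GRCm38.p6.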

Additional observations from a re-analysis of the deposited data

How the results depend on the processing

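KO against WT in quiescent cells gave 0 called members under all alternatives. In activated cells the count of 0 became 3 with no filter on low counts, 2 with DESeq2, 1 with the robust fit, and 0 to 6 on leaving out 1 library, with 6 without WT activated 2. For the difference of the KO effect between states the count of 0 became 2 with no filter, 1 with DESeq2 and 0 to 2 on leaving out 1 library, with Inhba and Bambi called without WT activated 2. On activation, leaving out 1 library gave 3 to 7 members higher and 13 to 22 lower in WT, and 2 to 5 higher and 19 to 26 lower in KO. The WT extremes of 3 higher and 22 lower came without WT activated 1, and 2 higher in KO came without KO activated 2. Counts under the other alternatives were within 1.5 times the reported ones. The value of Inhba on activation in WT ran from -2.64 without WT activated 1 to 3.09 without WT activated 2, around a reported 2.09. Leaving out 1 activated library leaves a single one in its group, which is then assumed to vary like the other groups. Where the text names no cause for such a change, the cause was not tested. All calls, under every alternative run, stayed as reported for 53 of 53 members in quiescent KO against WT, 46 in activated KO against WT, 51 for the difference, 39 for activation in WT and 37 for activation in KO.

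Whether replicate numbers pair these samples was not settled. Deviations of same-numbered quiescent libraries correlated at 0.05, 0.122, -0.05 and 0.296, and those of different-numbered ones at -0.208 to 0.0753. Same-numbered quiescent WT and KO libraries were near in total counts, at 17532019 and 17238391, 12775593 and 13075208, 23058947 and 22897189, and 22785815 and 23717013. In the activated state, with 2 libraries per group, all correlations are of the same size by construction, 0.0236 or -0.0236, and cannot show pairing. The term of the replicate block was shared within a state for the comparisons of KO and across both states for activation. A fit with the replicate block called 0, 0 and 0 members in the 3 comparisons of KO, 5 higher and 16 lower on activation in WT, and 3 higher and 23 lower in KO. It ended the WT calls of Inhba, Bmpr2 and Smad6 and the KO calls of Ltbp2, Fstl1 and Smad3, and it added Smad7 in WT. A fit to the compared groups alone could not be run for the difference of the KO effect, which needs all 4 groups. The activated libraries, with 3172164 to 5427280 counts, limit what can be seen of the rarest members, such as Bmp7, Grem1, Fstl3 and Smad9.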
